A study of Mus musculus with 5 samples.

Results

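The subject is a set of 64 PU.1-bound regions of the mouse genome that carried signal in conventional dendritic cells (cDCs) and held at least 1 window with almost none in plasmacytoid dendritic cells (pDCs). They were picked out of 67237 regions by their measured values. Windows of 10 bp listed in the deposited count table were scaled to CPM, meaning counts per 1000000 counts over all windows outside repeats, and windows with gaps of at most 100 bp were joined into regions. A region was kept if at least 1 of its windows reached 4 CPM in both cDC libraries and stayed at or under 1 CPM in both pDC libraries. The series holds 4 ChIP-seq libraries, made by sequencing the chromatin that an antibody to PU.1 pulled down, from 2 biological replicates of cDCs and 2 of pDCs, and 1 input library of unprecipitated cDC chromatin. Both cell types were grown in Flt3L culture from the strain labelled C56BL/6, with no other treatment named. The antibody was T-20. Positions are in mm10. The files hold no expression values, so the labelled cell types could not be checked against marker genes.

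PU.1, encoded by Spi1, is an ETS-family transcription factor that binds DNA around a GGAA core and acts widely in myeloid and lymphoid development. It often occupies enhancers far from gene starts, where it works with factors particular to a lineage. Conventional dendritic cells take up antigen and prime T cells. Plasmacytoid dendritic cells are known for secreting type I interferon, and both arise from progenitors that need Flt3 ligand.

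None of the 64 regions overlapped a promoter listed by RefSeq for GRCm38.p6, and no sequence of the regions themselves was used here. The promoters of genes that hold such a region in their span or within 10 kb did carry PU.1 windows in some cases. The 3 shown are those with the highest cDC signal over the promoter itself, chosen after their values were seen, because they put the distal regions beside a start site that PU.1 occupied in both cell types. Each runs 5′ to 3′ from 250 bases before to 50 after a listed start of the gene. For Samsn1 this is the outer end of the gene span, at 75909266. For Apbb1ip and Arhgap22 it is a start inside the span, which begins at 22755971 and 33213994. Capitals mark GAGGAA or its reverse complement TTCCTC, searched on both strands, an extended form of the ETS core GGAA that lies inside it.
Samsn1, chr16:75909217-75909516, minus strand: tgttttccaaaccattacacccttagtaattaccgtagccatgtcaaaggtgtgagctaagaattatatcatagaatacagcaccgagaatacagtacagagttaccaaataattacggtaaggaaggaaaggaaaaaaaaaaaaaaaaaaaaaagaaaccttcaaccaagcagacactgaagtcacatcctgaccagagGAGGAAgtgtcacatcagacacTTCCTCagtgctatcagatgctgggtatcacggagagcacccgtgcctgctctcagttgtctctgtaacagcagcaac
Apbb1ip, chr2:22774077-22774376, plus strand: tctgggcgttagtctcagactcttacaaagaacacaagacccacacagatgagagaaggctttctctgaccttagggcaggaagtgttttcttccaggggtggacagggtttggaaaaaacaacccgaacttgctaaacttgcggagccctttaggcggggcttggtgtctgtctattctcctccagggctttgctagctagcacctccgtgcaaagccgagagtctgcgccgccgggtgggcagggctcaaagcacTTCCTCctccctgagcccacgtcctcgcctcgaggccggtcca
Arhgap22, chr14:33216573-33216872, plus strand: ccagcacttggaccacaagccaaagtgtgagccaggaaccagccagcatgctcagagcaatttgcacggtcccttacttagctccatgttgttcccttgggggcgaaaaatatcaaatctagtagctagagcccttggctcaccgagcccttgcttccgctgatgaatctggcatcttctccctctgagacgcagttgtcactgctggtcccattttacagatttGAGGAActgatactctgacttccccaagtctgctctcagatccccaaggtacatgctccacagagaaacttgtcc

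The Samsn1 promoter held 2 matches, and its best window had 18.9 and 13.1 CPM in cDC replicates 1 and 2 and 21.8 and 20.2 CPM in pDC replicates 1 and 2. The Apbb1ip promoter held 1 match, with 11 and 14.4 CPM in cDCs and 15.4 and 12.6 CPM in pDCs. The Arhgap22 promoter held 1 match, with 5.87 and 7.73 CPM in cDCs and 5.77 and 7.25 CPM in pDCs. Values of the 2 cell types overlapped at Apbb1ip and Arhgap22, and both pDC values lay above the cDC values at Samsn1. Matches to GAGGAA occurred in 28.3% of all 32851 listed promoters and in 47.1% of the 1509 that overlapped a region with 4 CPM in all 4 libraries. A match describes letters in the window and does not locate binding.

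At the chosen windows the 64 sites formed a narrow, weak class. In each region the window described is the one with the highest mean cDC signal among those that met the limits. The lowest, median and highest values were 4.05, 5.06 and 8.70 CPM in cDC replicate 1 and 4.06, 4.78 and 8.99 CPM in cDC replicate 2. They were 0, 0.481 and 0.961 CPM in pDC replicate 1 and 0.177, 0.884 and 0.884 CPM in pDC replicate 2. The groups cannot overlap, because the limits set them apart, so these values are a description and no test was made of them. Mean cDC signal was 4.81 to 16.5 times mean pDC signal, with a median of 8.21. The cDC replicates differed by a median factor of 1.14 and at most 1.59. In bulk libraries such as these, fewer cells that bind PU.1 at a site and less PU.1 per cell cannot be told apart.

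**Figure D1:**
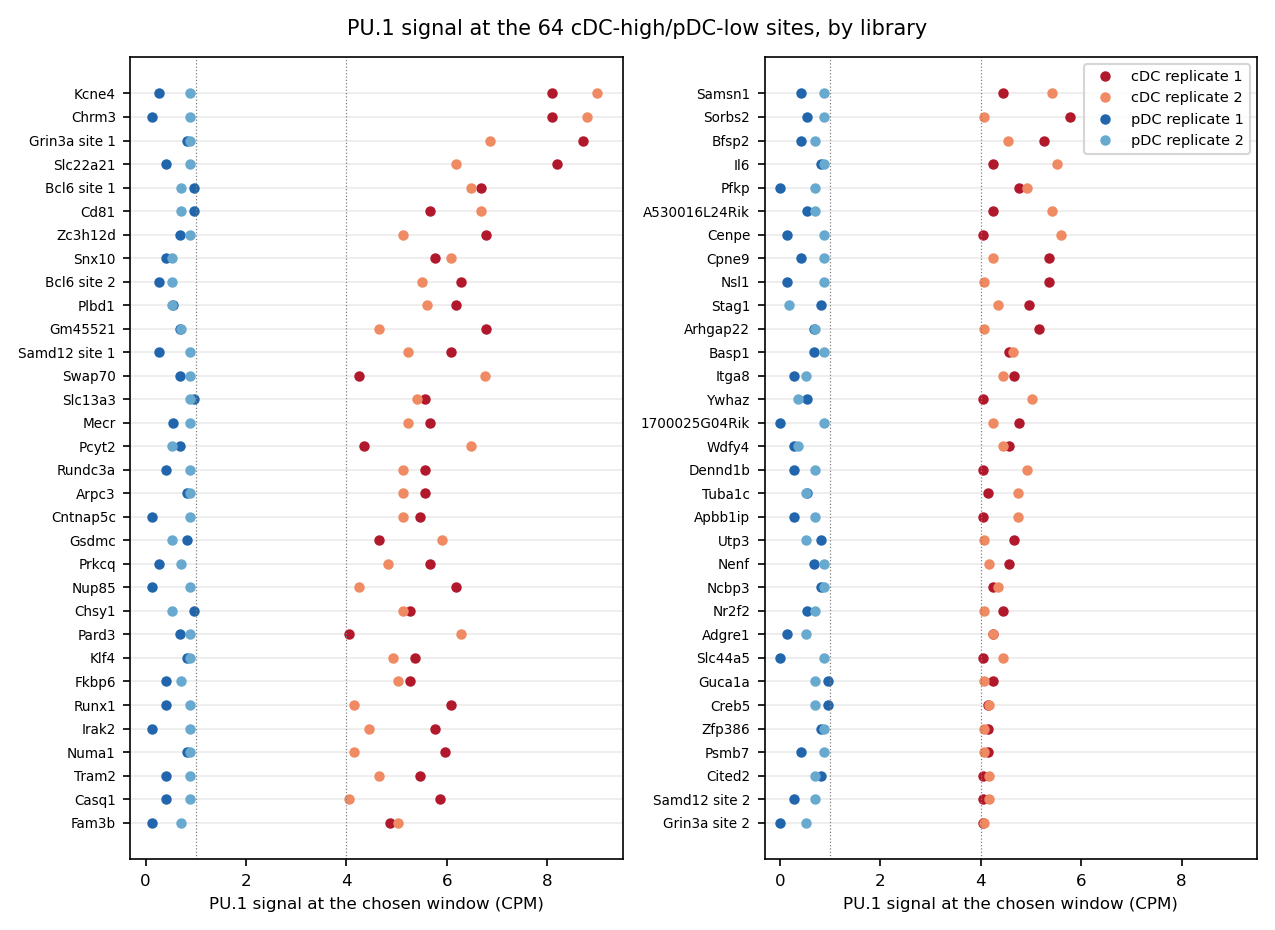
PU.1 signal in CPM (x axis) at the chosen window of each of the 64 sites (y axis, named by the protein-coding gene that holds the site or lies nearest), in order of mean cDC signal; each point is 1 library and the dotted lines are the limits of 1 and 4 CPM. Most cDC values lie close above 4 CPM, and pDC replicate 2 often sits at 0.884 CPM.

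Counts behind the pDC values were small. The limit of 1 CPM stood for at most 7 counts in pDC replicate 1 and 5 in pDC replicate 2, and the limit of 4 CPM for at least 40 and 42 counts in cDC replicates 1 and 2. A window with 7 counts in pDC replicate 1 has an exact 95% Poisson interval of 0.386 to 1.98 CPM, and one with 5 counts in pDC replicate 2 an interval of 0.287 to 2.06 CPM, covering counting error only. The pDC libraries had 33 chosen windows at exactly 5 counts in replicate 2, and 4 at 0 counts in replicate 1, where 3 counts (0.412 CPM) is the floor. Input counts ran from 0 to 6 with a median of 2. Just inside the limits, the lower cDC library reached 4.05 CPM and the higher pDC library 0.961 CPM. Just outside, the nearest values were 3.96 and 1.06 CPM. A further 201 windows met the cDC limit while the higher pDC library passed its limit by at most 0.25 CPM.

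The label of near exclusivity held for part of the set only, so the regions are called cDC-high/pDC-low sites here. In 53 sites a single window met the limits, in 7 sites 2 windows, and in 4 sites 3 windows. The chosen window was the strongest cDC window of its region in 19 of 64 sites. At the strongest cDC window of each region, mean cDC signal had a median of 6.22 CPM and mean pDC signal a median of 0.957 CPM, and both pDC libraries were at or under 1 CPM there in 20 sites. Every listed window of the region was at or under 1 CPM in both pDC libraries in 10 sites. These were the sites at Snx10, Gm45521, Swap70, Rundc3a, Samsn1, Stag1, Wdfy4, Dennd1b, Utp3 and Slc44a5.

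**Figure D2:**
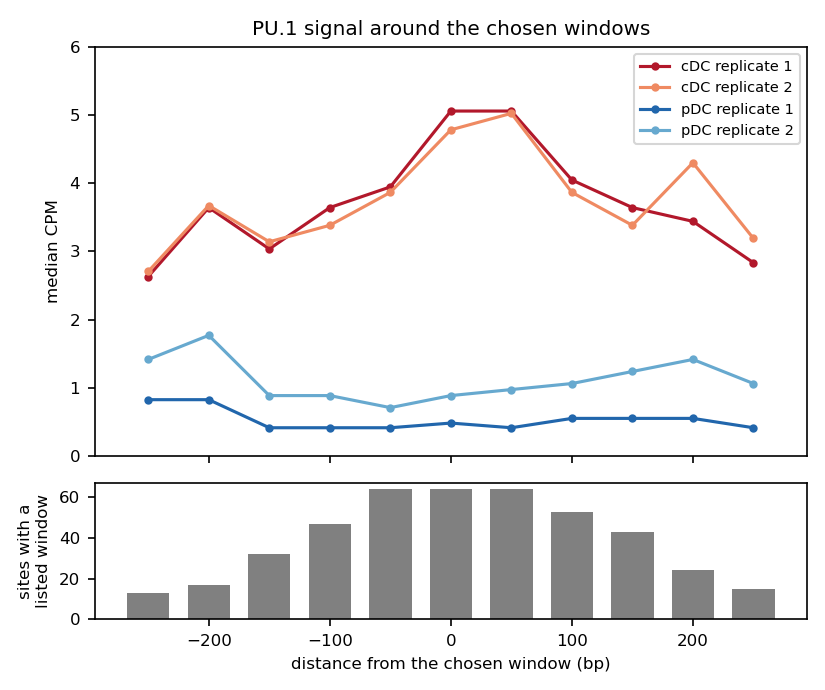
Median PU.1 signal in CPM over the sites (y axis, upper panel) by distance in bp from the chosen window (x axis), 1 line per library, with the number of sites that have a listed window at that distance below. Both cDC lines are highest at 0 and 50 bp, with medians of 4.78 to 5.06 CPM, and both pDC lines stay under 2 CPM over the plotted range of 250 bp on both sides.

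At 6 sites both pDC libraries reached 2 CPM in a window 100 to 200 bp from the chosen one, and at those windows cDC signal was higher still. In the Cntnap5c region, which is 560 bp wide, a window 200 bp away had 18.3 and 14.6 CPM in cDCs and 5.36 and 6.19 CPM in pDCs. In the Zfp386 region the window 150 bp away had 4.26 and 6.54 CPM in pDCs beside 12 and 11.5 CPM in cDCs. These 2 were the only sites of the 64 where both pDC libraries reached 4 CPM in the same window. The windows at Slc13a3, Chsy1, Sorbs2 and Creb5 had 2.06 to 3.71 CPM in pDC replicate 1 and 2.83 to 5.48 CPM in pDC replicate 2. At these 6 sites the chosen window thus lay beside windows with more signal in both cell types.

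Windows with strong cDC signal did not meet the limits, although some of the 64 regions held such windows elsewhere, up to a mean cDC signal of 17.3 CPM at Cntnap5c. Of 15529 regions with 4 CPM in both cDC libraries, 10950 also had a window with 4 CPM in all 4 libraries, the Cntnap5c and Zfp386 regions among them. By window, those with a mean cDC signal of 4 to 5 CPM met the limits in 40 of 9689 cases (0.413%), and those of 5 to 6 CPM in 32 of 11701 (0.273%). From 6 to 7 CPM the number was 3 of 8514, and from 7 to 9 CPM 4 of 10987. Above 9 CPM, none of 13112 windows up to 15 CPM, 4564 from 15 to 30 CPM and 338 above 30 CPM met them. The lowest mean pDC signal beside a cDC signal of 15 to 30 CPM was 2.29 CPM, and beside more than 30 CPM it was 9.38 CPM. The largest ratio of cDC to pDC signal fell with level in the same bins, from 20.4 at 4 to 5 CPM to 6.64 at 15 to 30 CPM and 3.69 above 30 CPM. A fixed pDC limit becomes a larger fold as cDC signal grows, so the number of sites at each level depends on the rule.

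**Figure D3:**
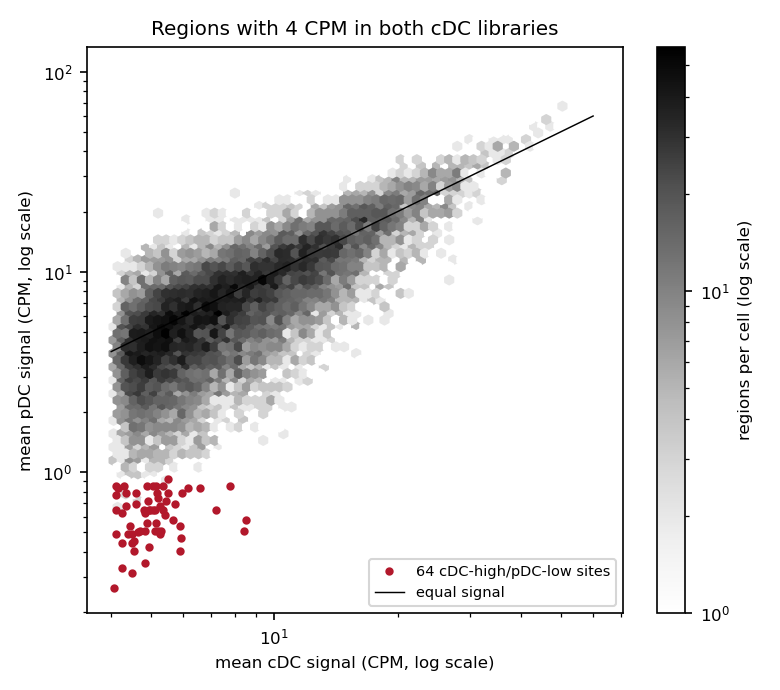
Mean pDC signal (y axis) against mean cDC signal (x axis), both in CPM on log scales, for regions with 4 CPM in both cDC libraries; grey cells count regions at their strongest cDC window, red points are the 64 sites at their chosen window, and the line marks equal signal. The red points lie under 1 CPM on the pDC axis and between 4.05 and 8.54 CPM on the cDC axis.

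The same kind of site chosen in 1 replicate was read in the other, which the choice had not used. With replicate 1 alone, 1264 regions met the limits. In replicate 2 their cDC signal had a median of 4.54 CPM and their pDC signal a median of 2.12 CPM, and cDC was higher in 1226 of them (97.0%). The pDC value was at or under 1 CPM in replicate 2 in 78 of the 1264 (6.17%). With replicate 2 alone, 205 regions met the limits. Their replicate 1 medians were 4.05 CPM in cDCs and 0.824 CPM in pDCs, cDC was higher in 203 (99.0%), and pDC was at or under 1 CPM in 120 (58.5%). The direction thus held in the unused replicate for nearly all regions of both choices. The near absence from pDCs mostly did not when replicate 2 was the one read. No share of other regions was taken on this measure, so the direction is not shown to be particular to these regions. Among the 15465 other regions with 4 CPM in both cDC libraries, 58.5% had the same direction in a fit of all 4 libraries. That is a different measure, so the shares are not directly comparable. Among the 64 sites pDC replicate 2 was above replicate 1 in 50. Over all windows, 24.6% were at or under 1 CPM in pDC replicate 1 and 16.4% in pDC replicate 2, beside 15% and 16.4% in the cDC replicates. Whether pDC replicate 2 held other cells was not tested. Without it 802 regions met the rule, without pDC replicate 1 it was 110, without cDC replicate 1 125 and without cDC replicate 2 154.

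**Figure D4:**
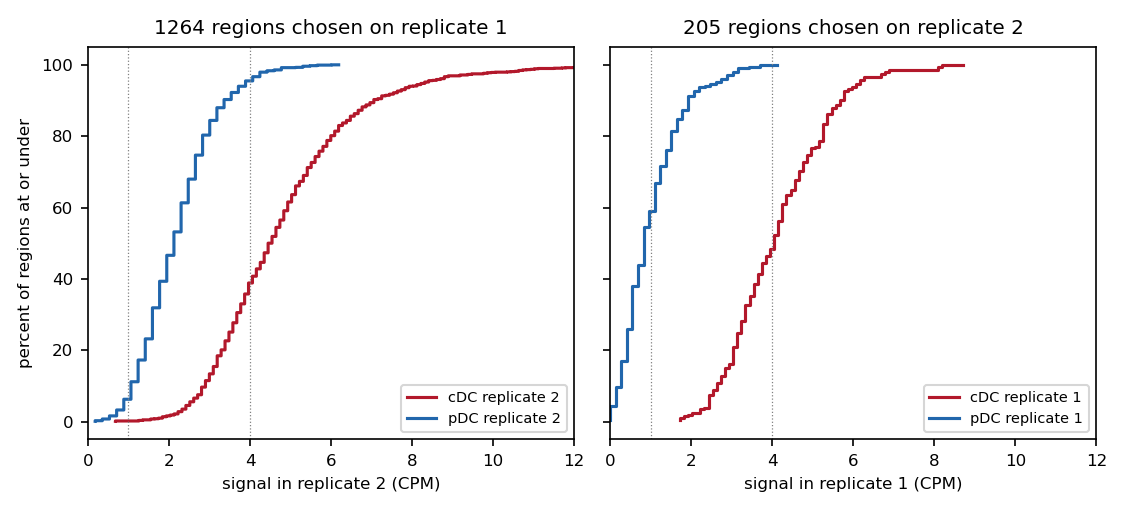
Share of regions in percent (y axis) at or under a given PU.1 signal in CPM (x axis) in the replicate that was not used to choose them, for 1264 regions chosen on replicate 1 (left) and 205 chosen on replicate 2 (right); red is cDC, blue is pDC, and dotted lines mark 1 and 4 CPM. The cDC curve lies to the right of the pDC curve in both panels, and the pDC curve of replicate 2 passes 1 CPM at 6.17%.

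Ranked by mean cDC signal at the chosen window, the 2 highest sites lay far from protein-coding genes. By the strongest cDC window of the region, other sites ranked higher. That mean was 17.3 CPM at Cntnap5c, 16.5 CPM at Sorbs2 and 16.4 CPM at Slc13a3, against 10.5 CPM at Kcne4. The highest at the chosen window was chr1:78895801-78896110, 75.8 kb from Kcne4, which encodes a potassium channel subunit, and inside the lncRNA gene Gm29536. It had 8.10 and 8.99 CPM in cDC replicates 1 and 2 and 0.275 and 0.884 CPM in pDC replicates 1 and 2, a ratio of 14.7, with no other region of 4 CPM in both cDC libraries within 100 kb. Next was chr13:10419551-10419810, 58.5 kb from the muscarinic receptor gene Chrm3 and inside the lncRNA gene Gm26861. It had 8.10 and 8.80 CPM in cDCs and 0.137 and 0.884 CPM in pDCs, a ratio of 16.5. Both ratios rest on pDC sums of 7 and 6 counts, with replicate 1 under the floor of 3 counts, so their order is not informative. Of the other sites, 2 had a mean cDC signal over 7 CPM at the chosen window.

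Those 2 were in genes. The first of 2 sites in Grin3a, a glutamate receptor subunit gene (chr4:49728051-49728310), had 8.70 and 6.86 CPM in cDCs and 0.824 and 0.884 CPM in pDCs. The second, chr4:49739601-49739910, lay 11.3 kb away. Its chosen window had 4.05 and 4.06 CPM in cDCs and 0 and 3 counts in the pDC libraries, the lowest sum of all chosen windows. The strongest cDC window of that region had a mean of 8.22 CPM in cDCs. There pDC replicates 1 and 2 had 0.137 and 1.77 CPM. Slc22a21, a carnitine transporter gene, held chr11:53956551-53956960 with 8.20 and 6.19 CPM in cDCs and 0.412 and 0.884 CPM in pDCs. Grin3a and Samd12 were the only genes with 2 sites, and no gene had 4. At the first Samd12 site (chr15:53415801-53416110) signal was 6.07 and 5.22 CPM in cDCs and 0.275 and 0.884 CPM in pDCs.

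A pair of sites 0.691 kb apart lay 126 and 127 kb from Bcl6, a transcriptional repressor used in cDC and germinal centre B cell development. The first (chr16:24114501-24114810) had 6.68 and 6.48 CPM in cDCs and 0.961 and 0.707 CPM in pDCs. The second (chr16:24115501-24115810) had 6.27 and 5.51 CPM in cDCs and 0.275 and 0.530 CPM in pDCs. Another PU.1 region 11.1 kb from the first (chr16:24102901-24103360), which the rule did not use, was also higher in cDCs, with a log2 fold (pDC minus cDC) of -1.93 ± 0.32 (SE) and edgeR adjusted p = 0.000653. Its strongest cDC window had 13.6 and 14.6 CPM in cDCs and 1.92 and 6.19 CPM in pDCs. Runx1, a core haematopoietic factor gene, held chr16:92818501-92818810 in its span with 6.07 and 4.16 CPM in cDCs and 0.412 and 0.884 CPM in pDCs. Other sites held by a factor gene, or with one as the nearest protein-coding gene, were named after their values were seen. They lay in the spans of Creb5 and Zfp386, and 410 kb from Klf4, 189 kb from Nr2f2 and 728 kb from Cited2. Listed starts of other genes were closer, at 58.1 kb for the Klf4 site, 40.4 kb for the Nr2f2 site and 24.4 kb for the first Bcl6 site. Whether the sites act on the named genes was not tested.

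Genes of immune function held several sites. Wdfy4, needed by cDC1 cells for cross-presentation, held chr14:33162951-33163210 with 4.55 and 4.45 CPM in cDCs and 0.275 and 0.354 CPM in pDCs, which is 2 counts in each pDC library. It was 1 of the 10 sites at or under 1 CPM in pDCs throughout. Irak2, a kinase of Toll-like receptor and interleukin-1 signalling, held chr6:113664401-113664660 with 5.77 and 4.45 CPM in cDCs and 0.137 and 0.884 CPM in pDCs. At Adgre1, which encodes the macrophage antigen F4/80, the site at chr17:57450801-57451010 had 4.25 and 4.25 CPM in cDCs and 0.137 and 0.530 CPM in pDCs. Cd81, a tetraspanin gene, had a site 9.39 kb from its span (chr7:143042901-143043360) with 5.67 and 6.67 CPM in cDCs and 0.961 and 0.707 CPM in pDCs. In all 4 cases both cDC values were several times the higher pDC value, as the rule requires.

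Sites with low pDC counts at the chosen window also lay in Snx10, Plbd1 and Fam3b, and 451 kb from Pfkp, the nearest protein-coding gene. Snx10, a sorting nexin of endosomes, held chr6:51558351-51558610 with 5.77 and 6.09 CPM in cDCs and 0.412 and 0.530 CPM in pDCs. Plbd1, which encodes a phospholipase B-like protein, held chr6:136654551-136654910 with 6.17 and 5.61 CPM in cDCs and 0.549 and 0.530 CPM in pDCs. The site 451 kb from Pfkp (chr13:7100451-7100760) had 0 and 4 pDC counts beside 47 and 51 cDC counts, and the Fam3b site (chr16:97480851-97481160) had 1 and 4 beside 48 and 52. Zc3h12d, which encodes a zinc-finger protein of the Regnase family, held chr10:7837701-7838010 with 6.78 and 5.12 CPM in cDCs and 0.687 and 0.884 CPM in pDCs. The site at chr14:7958601-7958960, in the span of Gm45521 and within 10 kb of Dnase1l3, a secreted DNase gene of dendritic cells and macrophages, had 6.78 and 4.64 CPM in cDCs and 0.687 and 0.707 CPM in pDCs. At the Slc13a3 site (chr2:165405051-165405710), the one that overlapped an end of a protein-coding gene, the chosen window had 5.57 and 5.41 CPM in cDCs and 0.961 and 0.884 CPM in pDCs.

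A further 7 sites were named after their values were seen, for the known roles of the genes that hold or neighbour them, and do not form a tested group. Swap70, an actin-binding protein of migrating dendritic cells, had 4.25 and 6.77 CPM in cDCs and 0.687 and 0.884 CPM in pDCs. Arpc3, a subunit of the Arp2/3 complex that branches actin, had 5.57 and 5.12 CPM in cDCs and 0.824 and 0.884 CPM in pDCs. Apbb1ip, whose product RIAM activates integrins, had 4.05 and 4.74 CPM in cDCs and 0.275 and 0.707 CPM in pDCs. Prkcq, which encodes protein kinase C theta, had 5.67 and 4.83 CPM in cDCs and 0.275 and 0.707 CPM in pDCs. Arhgap22, a Rac-directed GTPase-activating protein gene, had 5.16 and 4.06 CPM in cDCs and 0.687 and 0.707 CPM in pDCs. The site 8.48 kb from Samsn1, an adaptor gene of haematopoietic cells, had 4.45 and 5.41 CPM in cDCs and 0.412 and 0.884 CPM in pDCs. A site 40.1 kb from Il6 had 4.25 and 5.51 CPM in cDCs and 0.824 and 0.884 CPM in pDCs. All these cDC values were under 7 CPM.

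By position, 39 of 64 sites (60.9%) lay inside the span of a protein-coding gene, 5 within 10 kb of one, 12 between 10 and 100 kb and 8 farther than 100 kb (12.5%). The other 15465 regions with 4 CPM in both cDC libraries lay inside spans in 58.2% and farther than 100 kb in 6.13%. No site overlapped a listed promoter, against 1455 of the 15031 other cDC regions on chromosomes with listed promoters (9.68%), and 894 of 8942 (10.0%) among those whose strongest window was at or under 8.54 CPM, the highest mean cDC signal at a chosen window. The strongest windows of the 64 regions reach higher, so the sets are not matched on strength. Under the mirrored rule, with 4 CPM in both pDC libraries and at most 1 CPM in both cDC libraries, 226 regions were found, of which 1 of 215 overlapped a promoter. The median distance to a listed gene start was 25.7 kb for the 64 sites, 13.5 kb for the other cDC regions and 22.3 kb for the mirrored regions. Widths ran from 210 to 660 bp with a median of 310 bp, the same median as the other cDC regions. These shares were not tested. None of the 54 genes with a site in the span or within 10 kb also held a mirrored region there. The nearest site and mirrored region were 48.6 kb apart. With 226 mirrored regions and 21887 protein-coding genes, a 0 among 54 genes does not set the sites apart.

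Of the 54 genes with a site in the span or within 10 kb, 5 were on lists of genes known by cell type or function. The lists of cDC identity (38 genes in the annotation), cDC2 genes (23), pDC identity (40), MHC class II presentation (19), C-type lectins (29), chemokine and migration receptors (23), dendritic cell cytokines (27), and actin and phagocytosis genes (32) held 0 such genes. So did B cell (22), T and NK cell (25), erythroid, megakaryocyte and mast cell (19), non-haematopoietic (20) and housekeeping genes (20). One gene each came from the cDC1 list (Wdfy4, of 19), MHC class I and cross-presentation (Wdfy4, of 19), dendritic cell regulators (Runx1, of 31), pattern recognition and interferon sensing (Irak2, of 37), leukocyte integrins and adhesion (Cd81, of 20), and macrophage and neutrophil markers (Adgre1, of 27). Over any list this was 5 of 418 genes (1.20%), beside 0.247% of all 21887 protein-coding genes. The share was not tested, and long or densely bound genes have more room for a site. At 0.247%, lists of 19 to 40 genes would mostly hold 0, so a 0 does not set a list apart.

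Other PU.1 regions close to the 64 sites, which the rule had not used, were more often higher in cDCs than regions at large. Of 188 tested regions lying 1 to 20 kb from a site, 28 (14.9%) were higher in cDCs and 5 (2.66%) in pDCs by the quasi-likelihood test of edgeR at an adjusted p of 0.05. Over all 60392 tested regions 6.29% were higher in cDCs and 8.48% in pDCs. The median log2 fold, pDC minus cDC, was -0.71 for the neighbours and 0.07 for all regions. A region takes the direction of its lowest-p window, so a called region can overlap between cell types at its strongest cDC window. An example is chr2:11197001-11197560 near the Prkcq site, called at a log2 fold of -2.43. Its strongest cDC window had 15.3 and 12.6 CPM in cDCs and 11.7 and 13.4 CPM in pDCs. Of 61 neighbours with 4 CPM in both cDC libraries, 17 were higher in cDCs and 0 in pDCs. Towards pDCs, 1 had an unadjusted edgeR p under 0.05, and DESeq2 called 0. Over all such regions 13.1% were called higher in cDCs and 4.36% in pDCs. This filter used cDC signal alone, which favours calls towards cDCs in the neighbours and in all such regions. The 0 in pDCs is thus not informative by itself. Called neighbours lay near 23 of the 53 sites that had a tested neighbour: 20 sites had 1 or more higher in cDCs and 5 had 1 higher in pDCs, with 2 sites, Creb5 and Prkcq, in both groups.

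**Figure D5:**
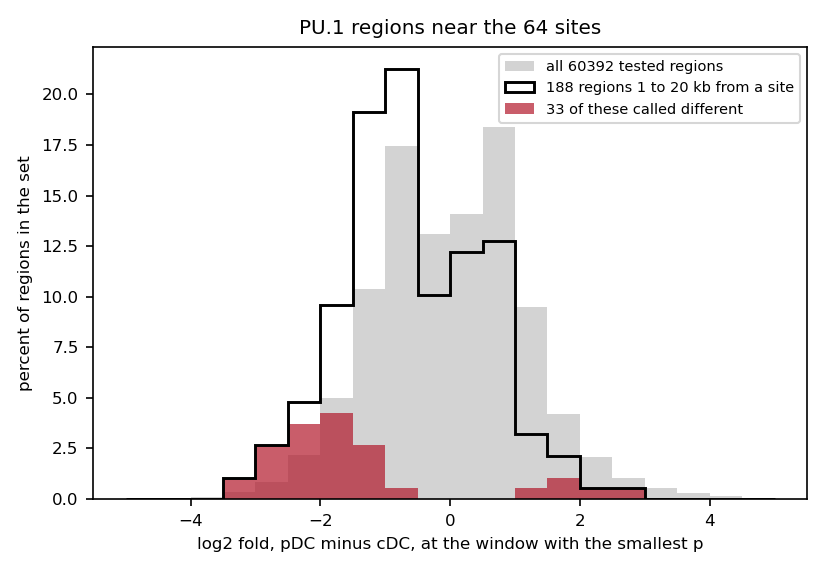
Distribution of log2 folds, pDC minus cDC (x axis), in percent of each set (y axis) for 188 regions 1 to 20 kb from a site (black outline), the 33 of them called different (red) and all 60392 tested regions (grey). The outline is shifted to the left of the grey bars, with a median of -0.71 against 0.07.

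The number of neighbours called depended on single libraries. Without cDC replicate 1, 9 of 190 were higher in cDCs, beside 1.44% of all regions in that fit (2.83% of all were higher in pDCs). Without cDC replicate 2 it was 7 of 188, beside 1.86% of all (3.24% in pDCs). Without pDC replicate 2 it was 49 of 203, beside 10.9% (12.5% in pDCs). DESeq2 called 7 of 188 higher in cDCs and 0 in pDCs, beside 0.798% and 2.37% of all regions. In each of these fits the neighbours' share stayed above that of all regions.

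Cases in both directions show the size of these differences. Near the Dennd1b site, chr1:138935001-138935310 had 7.08 and 6.86 CPM in cDCs and 1.10 and 1.24 CPM in pDCs (log2 fold -2.85 ± 0.43, edgeR adjusted p = 0.000185), and 3 of its 7 tested neighbours were higher in cDCs. Near the Apbb1ip site, chr2:22826301-22826610 had 2.20 and 3.71 CPM in pDCs beside 12.8 and 10.9 CPM in cDCs (-1.99 ± 0.30, edgeR adjusted p = 0.000258). The neighbour near the Snx10 site (chr6:51550051-51550260) was weaker, with 4.86 and 4.25 CPM in cDCs and 0.412 and 1.06 CPM in pDCs (-2.63 ± 0.48, edgeR adjusted p = 0.00146). In Wdfy4, chr14:33168751-33169110, 5.54 kb from the site, had 10.7 and 10.9 CPM in cDCs and 2.20 and 5.13 CPM in pDCs (-1.73 ± 0.31, edgeR adjusted p = 0.00176). A second Wdfy4 neighbour was called in the same direction. In the other direction, chr14:33363551-33363610 near the Arhgap22 site had 0.405 and 0.387 CPM in cDCs and 3.16 and 1.77 CPM in pDCs (2.68 ± 0.57, edgeR adjusted p = 0.00261).

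Summed over whole genes, the signal away from the sites leaned to cDCs as well. For each gene the tested windows of its span and 10 kb on both sides were summed, leaving out all windows within 1 kb of a site. Of 52 loci with a site that could be tested, 13 (25%) were higher in cDCs and 1 (1.92%) in pDCs, while over all 15027 loci 8.31% and 9.19% were. The median log2 fold was -0.25, against 0.00 for all loci, and 37 of the 52 were below 0. Neighbouring genes share windows, so loci are not independent. The loci also hold neighbour regions counted above, so the locus and neighbour results overlap. At Grin3a and Zfp386 the rest of the locus was a called neighbour (edgeR adjusted p = 0.00887 and 0.00747). Without cDC replicate 1 or cDC replicate 2, 7 loci were higher in cDCs. The shares of all loci were then 2.27% and 3.11% in cDCs and 2.96% and 3.82% in pDCs. Without pDC replicate 2 it was 25 loci, beside 18.4% of all in cDCs and 16.8% in pDCs. DESeq2 called 12 loci higher in cDCs and 1 in pDCs, beside 7.43% and 8.27% of all.

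Tram2 (a protein of the endoplasmic reticulum translocon) had 103 and 112 CPM in cDCs and 42.5 and 61.5 CPM in pDCs over the rest of its locus, on libraries scaled with TMM factors. Its log2 fold was -1.08 ± 0.19 (edgeR adjusted p = 0.00169). Ncbp3, a cap-binding protein gene, lay at -0.88 ± 0.16 (edgeR adjusted p = 0.00174), and Zfp386 at -2.47 ± 0.50 (edgeR adjusted p = 0.00403) on only 7 and 24 pDC counts. Both groups were apart at all 3 loci. Rufy3 had 39.0 and 40.4 CPM in cDCs and 7.30 and 14.0 CPM in pDCs. Its log2 fold was -1.94 ± 0.31 (edgeR adjusted p = 0.000947), and its call ended with flanks of 50 kb (-0.32).

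Plbd1 (-1.46 ± 0.31), Nsl1 (-0.80 ± 0.16), Cd81 (-0.54 ± 0.12), Ocstamp (-0.93 ± 0.21), Slc22a21 (-1.12 ± 0.26), Grin3a (-1.42 ± 0.36), 1700025G04Rik (-0.43 ± 0.11), Samd12 (-0.43 ± 0.13) and Wdfy4 (-0.34 ± 0.11) were the other loci higher in cDCs, with edgeR adjusted p from 0.00343 to 0.0403, beside 0.00536 for Plbd1. The calls of Cd81, Ocstamp, 1700025G04Rik, Samd12 and Wdfy4 ended without cDC replicate 1 and without cDC replicate 2, and that of Wdfy4 also by DESeq2 (adjusted p = 0.0526), with the replicate block, by the gene span alone and with windows of a mean under 30 counts left out (-0.19). Samd12 lost its call without pDC replicate 1 too (-0.20) and with those windows left out (-0.36). The call of Slc22a21 ended without cDC replicate 1 (-0.97) and that of Grin3a without cDC replicate 2 (-1.16) and with flanks of 50 kb (-0.32). The Plbd1 call ended with flanks of 50 kb (-0.01), where the fold was close to 0, and Nsl1 with the same flanks (-0.29). With windows within 5 kb of a site left out, the calls of Nsl1 (-0.59) and 1700025G04Rik (-0.33) ended, and Grin3a and Zfp386 gave no value. Ocstamp turned to 0.11 without a call when windows within 5 kb of a site were left out. The locus higher in pDCs was Tatdn3 (1.20 ± 0.33, edgeR adjusted p = 0.0197), which shares its site with Nsl1. Its pDC replicates were at 47.4 and 19.8 CPM, its call ended without pDC replicate 1 (0.39), cDC replicate 1 (1.28) or cDC replicate 2 (1.10), and it turned to -0.44, a call towards cDCs, with flanks of 50 kb.

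Runx1, Irak2, Snx10 and Adgre1 did not pass over the rest of their loci. Their log2 folds were -0.15 ± 0.11, -0.26 ± 0.10, -0.73 ± 0.26 and -0.98 ± 0.42, with edgeR adjusted p of 0.374, 0.103, 0.0687 and 0.125. Without pDC replicate 2, Irak2 (-0.27), Snx10 (-1.10) and Adgre1 (-1.28) were called higher in cDCs. Irak2 was also called without pDC replicate 1 (-0.24), and Snx10 with no filter on low counts (-0.72). With windows within 5 kb of the site left out, Irak2 was called higher in cDCs (-0.34, edgeR adjusted p = 0.0415), and Adgre1 turned to 1.39 without a call. Zc3h12d lay at -0.03 ± 0.11, and at -0.46 with a call towards cDCs (edgeR adjusted p = 0.0402) when those windows were left out. The chosen window of its site had 5.12 CPM or more in cDCs and less than 1 CPM in pDCs.

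Promoter regions of the same genes were few, and 0 of them were called different. Of 19 tested regions that overlapped a promoter of a gene with a site, 0 were called by edgeR in either direction (2 higher in cDCs and 0 in pDCs at an unadjusted p under 0.05) and 0 by DESeq2. Over all 4859 promoter regions 1.61% were higher in cDCs and 2.49% in pDCs. With shares this low, 0 of 19 does not set these promoters apart from promoters at large. The region at the Wdfy4 promoter, which reaches beyond it, peaked at 24.8 and 21.7 CPM in cDCs and 29.7 and 28.1 CPM in pDCs (log2 fold 0.60 ± 0.23, edgeR adjusted p = 0.413). At the Runx1 promoter the values were 6.07 and 5.99 CPM in cDCs and 6.32 and 6.19 CPM in pDCs, and at Plbd1 2.83 and 3.67 CPM against 1.10 and 1.24 CPM (-1.43 ± 0.45, edgeR adjusted p = 0.0759).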

How the data were processed

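The deposited values are read counts per 10 bp window, not normalised by the authors. Subread 1.4.4 and build mm10 are named, per the submitters' processing notes. How reads were extended and windows chosen is not given in the labels. Windows start on a 50 bp grid and neighbours can share reads, so totals are not depth. Totals over 329850 windows, after leaving out 146 repeat windows with an input count of 1000 or more, ran from 5656601 to 10345955 for PU.1 and were 704301 for input. The smallest sum over the 5 libraries was 33, so weaker windows are not listed.

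The members and gene lists were chosen with earlier results of these data known. The PU.1 libraries were compared with edgeR 4.0.16 (R 4.3.3, quasi-likelihood test, TMM, filterByExpr at a minimum count of 10, 288100 windows tested), with window p-values combined per region by the Simes method and Benjamini-Hochberg adjustment over all regions or loci. The log2 fold of a region was read at its lowest-p window. The SE is the one implied by the F statistic. The functions were tested on simulated data. DESeq2 1.42.0, other scalings, filters, distances, limits and left-out libraries were alternatives. Gene spans and promoters came from RefSeq for GRCm38.p6, without exons. Promoters of chromosome 18 were not used here.

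Sites were named by rule: the 12 highest in cDCs and the 6 with the lowest pDC counts, both at the chosen window. List genes, genes with 4 or more sites, sites over a promoter or gene end, and genes with a mirrored region were also named by rule. Others were named after their values were seen.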

Additional observations from a re-analysis of the deposited data

How the results depend on the processing

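The number of sites followed the limits. It was 292 with a cDC minimum of 3 CPM and 5 with 6 CPM, 4 with a pDC maximum of 0.5 CPM and 865 with 2 CPM, and 10 when every window had to be at or under the pDC limit. Replicate 1 alone gave 1264 and replicate 2 alone 205, and leaving out 1 library gave 110 to 802. It stayed within 1.5 times under the other scalings and gaps (49 to 68).

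Neighbours higher in cDCs numbered 28. They were 7 by DESeq2, 15 at a mean of at least 30 counts, 16 at 2 to 10 kb, and 7 to 49 with 1 library left out. Those higher in pDCs numbered 5, and 0 by DESeq2, 0 at a mean of at least 30 counts, 3 at 2 to 10 kb, 10 at 5 to 50 kb, and 0 to 15 with 1 library left out. For the rest of the loci, 13 higher in cDCs became 8 at that mean and 7 to 25 with 1 library left out. The 1 higher in pDCs became 0 at that mean and by the gene span alone, and 0 to 5 with 1 library left out. The cause was not tested.

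Same-numbered libraries shared a replicate number in their titles, and their deviations over windows had a correlation of 0.0160. Whether they shared a culture or a run was not tested. With the replicate block, 31 and 5 neighbours and 12 and 1 loci were called, and Wdfy4 lay at -0.34 (edgeR adjusted p = 0.0544).

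Folds of named loci that changed sign were those of Adgre1 (1.39) and Ocstamp (0.11) with 5 kb left out, Dnase1l3 with flanks of 50 kb (0.21), and Tatdn3 with those flanks (-0.44) and by the span alone (-0.34). Slc13a3 changed sign at that mean (0.035), by the span alone (0.15) and with 5 kb left out (0.16), and ran from -0.27 to 0.024 with 1 library left out. Zc3h12d changed sign at that mean (0.048) and ran from -0.11 to 0.025 with 1 library left out. With 5 kb left out, Grin3a and Zfp386 gave no value, and at that mean Zfp386 gave no value either. With 5 kb left out, Zc3h12d (-0.46) and Irak2 (-0.34) gained calls towards cDCs. Low pDC counts limit what the sites can show.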
